A study of Saccharomyces cerevisiae with 104 samples.

Results

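The genes described are 10 genes of mating type and pheromone signalling in budding yeast (Saccharomyces cerevisiae), taken by their identifiers from a table of 7122 genes. They are the G protein subunits GPA1, STE4 and STE18, the scaffold STE5, the transcription factor STE12, the receptor STE2, the protease BAR1, the pheromone gene MF(ALPHA)1, the agglutinin SAG1 and the barrier protein gene AFB1. RNA was sequenced from wild type (WT) and 29 histone mutants, 90 libraries in all; in each mutant 1 residue is substituted, in 22 of them in histone H3 and in 7 in histone H4. All strains share the background MSY196, which derives from S288C, so WT and mutants differ, as far as the labels say, only in the histone residue. There were 3 libraries per genotype, except 4 for WT and for H4Y88A and 2 for H3T3A and for H3T3D. A mutant is named by histone, residue and substitution, so that H3K122A has alanine (A) in place of the lysine (K) at the numbered position of H3. The labels state neither the mating type of the strains nor the growth state of the RNA cultures, and do not say whether replicates came from separate cultures, so p-values measure the spread between libraries, which may be technical.

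Haploid yeast cells are of mating type a or alpha and find each other through secreted peptides. A pheromone binds a receptor of the opposite cell type, Gpa1 releases the Ste4-Ste18 pair, and that pair recruits the scaffold Ste5, on which a kinase cascade activates the transcription factor Ste12. The G protein, the scaffold and Ste12 serve both cell types, whereas the receptor Ste2 and the alpha-factor protease Bar1 belong to a cells and alpha-factor, the agglutinin Sag1 and Afb1, a secreted barrier to a-factor, to alpha cells.

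Levels are given in CPM, the share of a library's gene counts scaled to a common total after TMM scaling of the library sizes, and reads come from the 3′ end of each transcript, so levels were not divided by gene length. Library totals were 768398 to 3143681 gene counts with a median of 1507840, apart from the H3K4R library S55 with 24010, in which members had 0 to 13 counts. The S number is the sample number in the column names. These numbers form 3 sets of consecutive values, defined with earlier results known: set 1 (S46 to S93) has 44 libraries with 3 of WT, set 2 (S94 to S117) has 22 with none of WT, and set 3 (S118 to S141) has 24 with 1 of WT, S133. The labels do not say what the sets stand for. H3T3A, H3T3D, H3K18A, H3S31D, H3K37Q, H3K37R, H3R40K and H4R55A lie wholly in set 3, so against WT the set and the genotype can be told apart only through S133 and H4Y88A.

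The alpha-specific genes were at far higher levels than the a-specific genes, which were low but detected. SAG1, MF(ALPHA)1, MF(ALPHA)2, STE3 (the receptor for a-factor) and AFB1 summed to between 937 and 5181 CPM per library, with a median of 1891 CPM. The 7 a-specific genes STE2, BAR1, MFA1, MFA2, STE6, ASG7 and AGA2 summed to between 9.28 and 216 CPM with a median of 24.5, the highest value being that of H3K4R S55. In every library the a-specific sum was below the alpha-specific sum, at a median of 1.37% of it. The MAT locus and silent cassette genes had 0 to 3 counts per library, and none of the 6 passed the filter on low counts. MATALPHA1 and MATALPHA2 have identical copies at the silent HML locus, and the count table lists alignments that are not unique on a summary line apart from the genes.

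All 10 members passed the filter on low counts, but STE2 and BAR1 did so with few counts. STE2 had 0 to 17 counts per library, with a median of 6, and BAR1 0 to 11 counts, with a median of 4. Among the other members, without H3K4R S55, the genotype means differed least for STE5, where the highest mean was 1.43 times the lowest, followed by STE18 at 1.61 times, and the largest ratios were 3.28 for AFB1 and 3.12 for SAG1. With S55, which had 0 counts of STE5, the STE5 ratio was 2.11. Without it, the SD of log2 levels between genotype means was 0.41 for SAG1, 0.39 for AFB1, 0.34 for MF(ALPHA)1 and for STE12, 0.31 for GPA1 and 0.14 for STE5, and the median over all genes tested was 0.30. The SD between libraries of the same genotype was 0.57 for SAG1, 0.44 for AFB1 and 0.16 for STE5, against 0.37 for the median gene. In the order of the 30 genotype means, the gap between neighbours was smaller than the SD within genotypes for all 29 pairs of neighbours of 9 members, and for MF(ALPHA)1 it was larger in 1 pair. With 30 means in order, gaps between neighbours are small in any case, so this does not show whether genotypes differ.

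**Figure D1:**
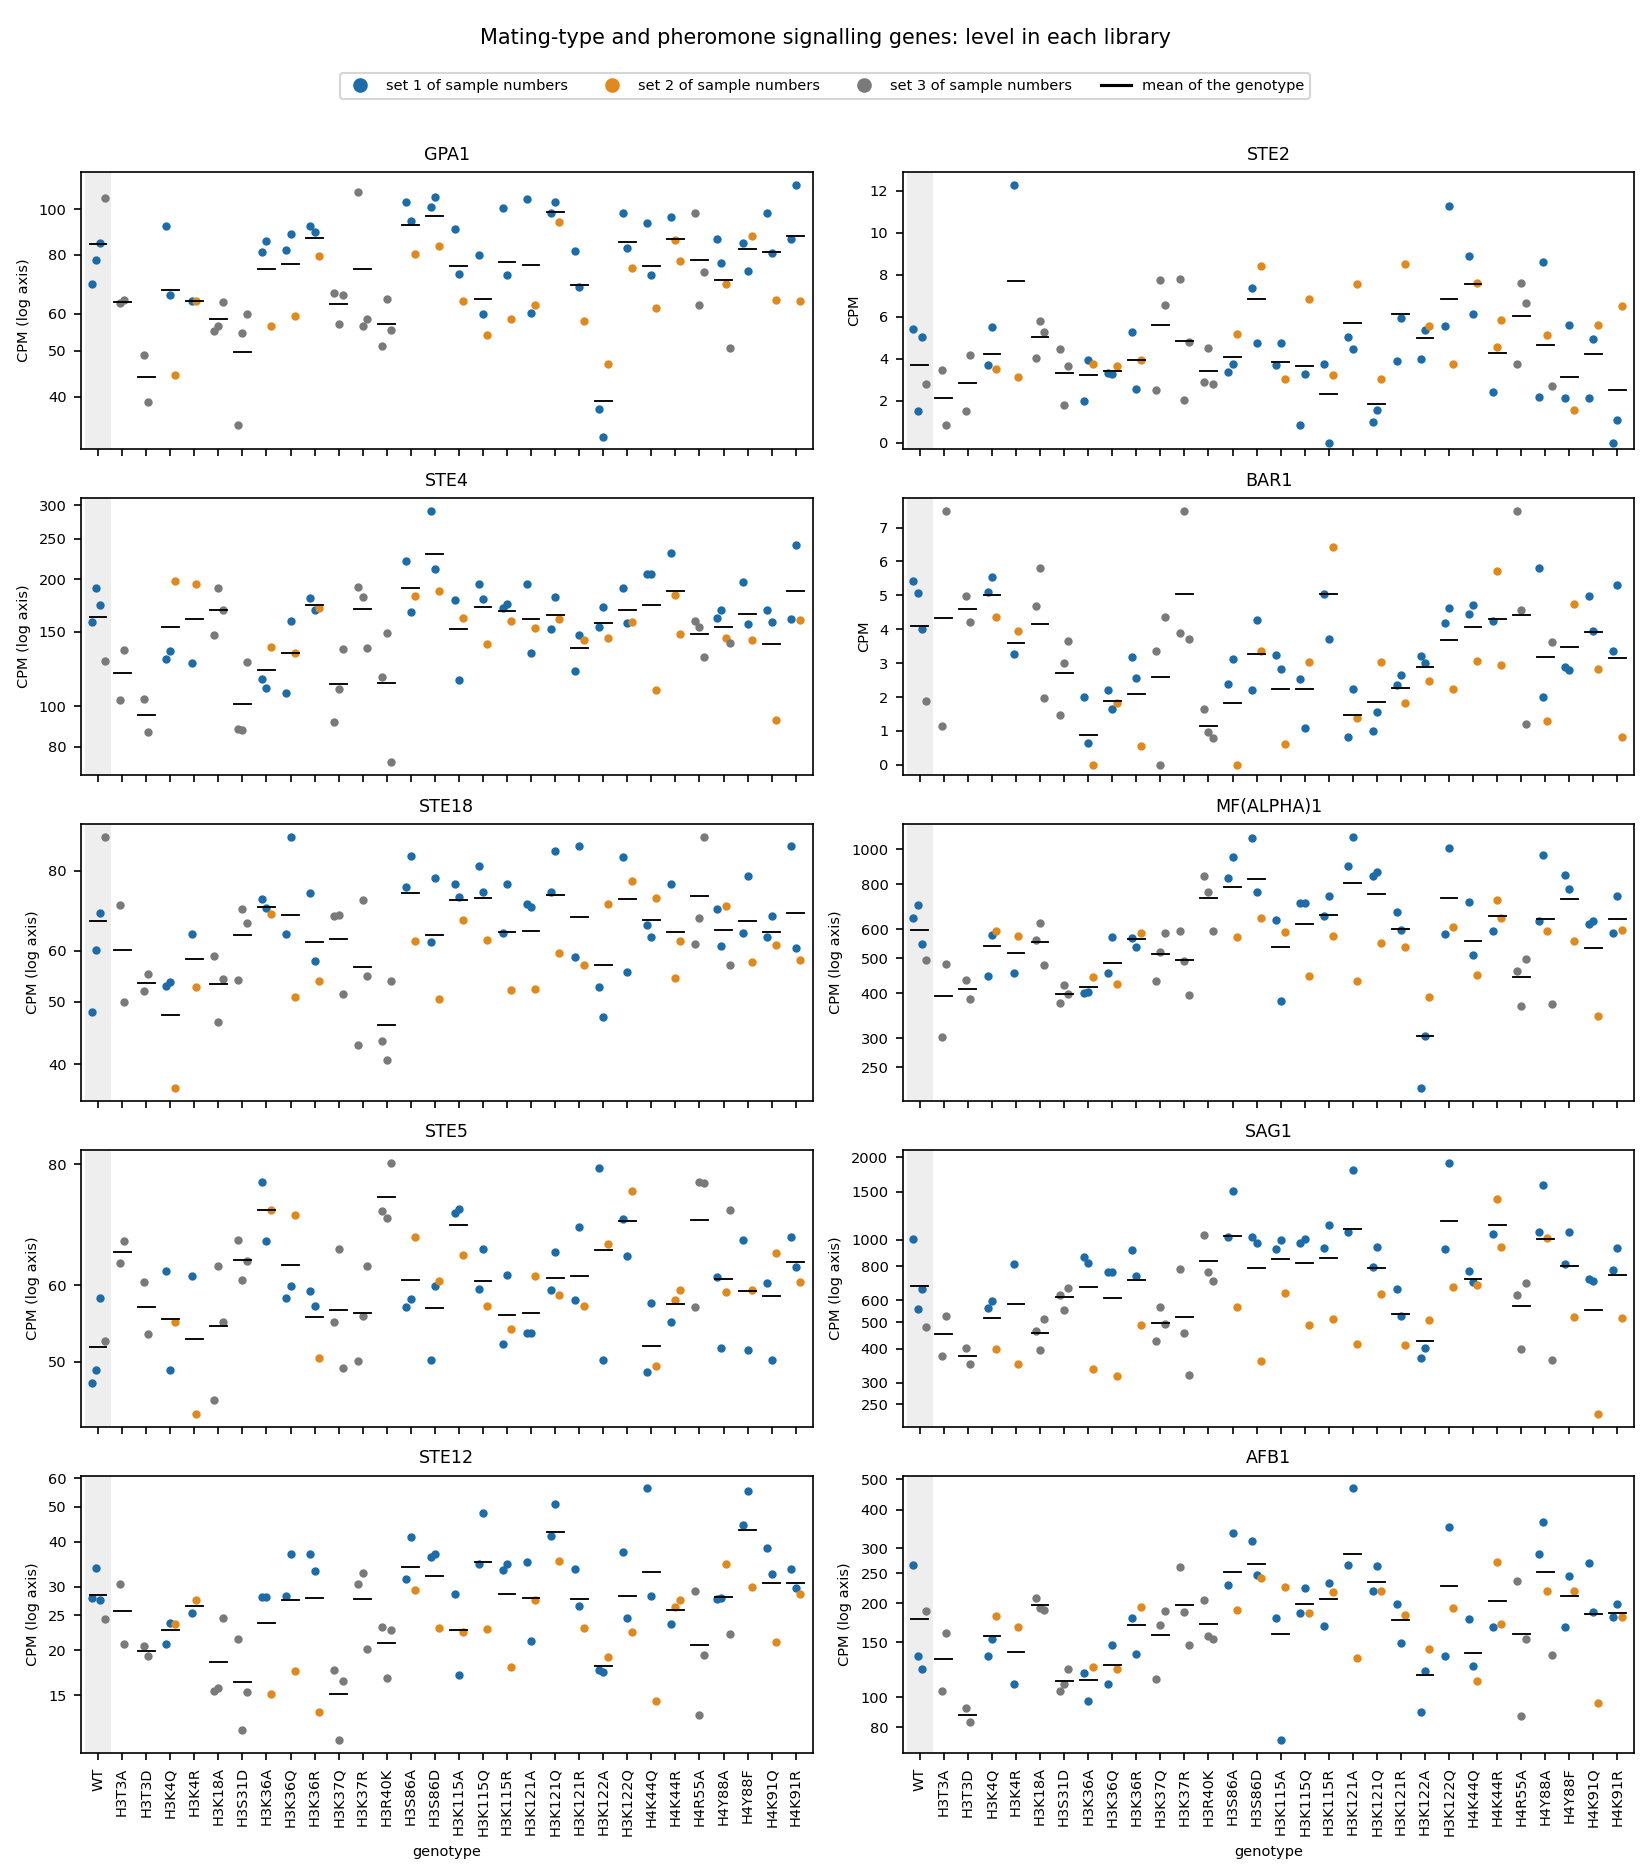
CPM of each member in each library, by genotype, with WT in the shaded column; points are libraries coloured by set of sample numbers, bars are genotype means, and the H3K4R library S55 is left out. The STE2 and BAR1 axes are linear and start at 0, the other axes are logarithmic. GPA1 is lowest in H3K122A, at 32.9 to 47 CPM, and SAG1 shows libraries of set 1 above the library of set 2 in most genotypes.

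Against WT, 5 of the 290 member and mutant combinations passed edgeR's quasi-likelihood test at an adjusted p under 0.05, 1 higher and 4 lower, and they involved GPA1, STE5 and BAR1. Over all genes tested the share called in these comparisons was 1.4% (0.856% higher, 0.548% lower), so 5 of 290, or 1.72%, is near the background. Between mutants of the same residue, 2 of 170 combinations passed, where the background was 0.694% (0.396% lower); both were lower in H3K122A than in H3K122Q. Against the mean of the other mutants, which does not use WT, 14 of 290 passed, 4 higher and 10 lower, and the background was 3.53% (2.36% higher, 1.17% lower). For the mean of all mutants against WT, where 0.137% of all genes were called, none of the 10 members passed edgeR's test, 1 had an unadjusted p under 0.05, and DESeq2 also called 0. SAG1 and STE2 passed in none of these comparisons. With the set as a covariate, 3 of the 14 calls against the other mutants remained, GPA1 and MF(ALPHA)1 in H3K122A and STE18 in H3R40K. How many calls of all genes remained was not computed.

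**Figure D2:**
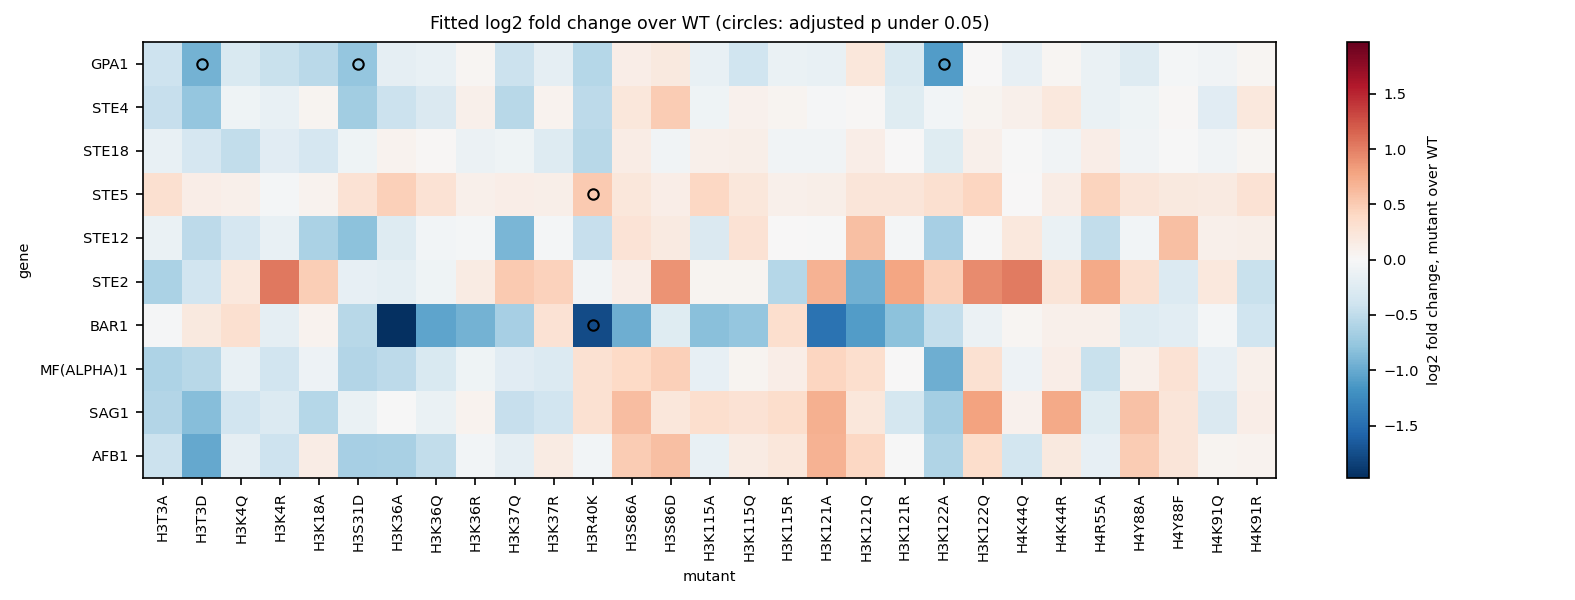
Fitted log2 fold change over WT of each member (rows) in each of the 29 mutants (columns), with circles where the adjusted p is under 0.05. The 5 circles are GPA1 in H3T3D, H3S31D and H3K122A, and STE5 and BAR1 in H3R40K. The large values of STE2 and of BAR1 rest on counts of 0 to 17 per library.

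GPA1 (YHR005C, chromosome VIII:113499-114917, minus strand) encodes the alpha subunit of the G protein, which keeps signalling off until pheromone binds. Its WT libraries were at 69.3, 77.9, 84.8 and 105.6 CPM. The H3K122A libraries were at 37.6, 32.9 and 47 CPM. All 3 were below all 4 of WT, and GPA1 fell by 1.11 on the log2 scale (SE 0.231, adjusted p = 0.00363), in a comparison where 0.773% of all genes were called. Within set 1 alone the log2 fold change was -1.15 (adjusted p = 0.00704), and with the set as a covariate it was -1.01 (adjusted p = 0.00283). The call was lost without S59 (log2 -1.08, adjusted p = 0.0578), without S60 (-0.99, adjusted p = 0.0856) and in a fit of H3K122A and WT libraries alone (-1.08, adjusted p = 0.0689).

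In H3T3D, a substitution of aspartate for threonine 3, the 2 GPA1 libraries were at 48.9 and 39 CPM. In H3S31D they were at 34.9, 54.7 and 59.9 CPM. Both genotypes lay wholly below WT and GPA1 fell by 0.94 (SE 0.261, adjusted p = 0.0175) and by 0.76 (SE 0.227, adjusted p = 0.0385) on the log2 scale, where 7.82% and 5.27% of all genes were called. Against S133, the WT library of the same set and the highest of the 4, the log2 fold changes were -1.26 (adjusted p = 0.0209) in H3T3D and -1.06 (adjusted p = 0.0532) in H3S31D, the lone WT library being assumed to vary like the other groups. The H3S31D call was also lost with the set as a covariate (log2 -0.72, adjusted p = 0.171), without any of its 3 libraries or without WT S46, S81 or S133; the H3T3D call was lost without S134 (-1.12, adjusted p = 0.108) or S135 (-0.79, adjusted p = 0.251). Of all gene and mutant combinations 4.58% lay wholly below WT, with 16.8% of genes in H3T3D, 11.6% in H3S31D and 11.1% in H3T3A. GPA1 lay wholly below WT in 8 of the 29 mutants, and 6 of the 8 mutants that lie wholly in set 3 were among them. The 5 that did not pass were H3R40K (51.3, 64.5 and 55.5 CPM, log2 -0.56, SE 0.218, adjusted p = 0.0908), H3K18A (log2 -0.54), H3K4R (-0.43), H3K37Q (-0.43) and H3T3A (-0.41). Against the mean of the other mutants, where the background shares were 1.08% in H3K122A, 13.6% in H3S31D, 11.7% in H3T3D and 9.69% in H3K121Q, GPA1 was lower in H3K122A (log2 -0.90), H3T3D (-0.72) and H3S31D (-0.53) and higher in H3K121Q (0.48). In H3K121Q its libraries were at 94, 97.9 and 103.6 CPM, the highest genotype mean, which overlapped WT and passed at an adjusted p of 0.0498.

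STE4 (YOR212W, chromosome XV:742910-744181, plus strand) and STE18 (YJR086W, chromosome X:586068-586400, plus strand) encode the beta and gamma subunits, the pair that carries the signal on. STE4 was at 158.4, 191.2, 174.1 and 127.7 CPM in WT. It was at 103.9 and 87 CPM in H3T3D and at 88.2, 87.8 and 127.01 CPM in H3S31D. Both mutants were wholly below WT, with log2 fold changes of -0.77 and -0.69 that did not pass (adjusted p = 0.0593 and 0.0613). Against the mean of the other mutants both fell, by 0.69 and 0.60 on the log2 scale (adjusted p = 0.0379 and 0.0264), and neither call was kept with the set as a covariate. STE4 was highest in H3S86D, at 291.0, 211 and 187.2 CPM, overlapping WT and 0.62 above the other mutants on the log2 scale (SE 0.162, adjusted p = 0.0208), where 3.52% of all genes were called; with the set as a covariate the log2 fold change was 0.53 (adjusted p = 0.0754). In H3K122A, where GPA1 was lowest, STE4 was at 154, 172 and 145 CPM and overlapped WT; its log2 fold change was -0.05, with a 95% interval of -0.50 to 0.40.

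STE18 was at 48.3, 60.2, 68.7 and 90.1 CPM in the WT libraries, so that WT spanned nearly 2-fold. It was lowest in H3R40K, at 43.4, 40.6 and 53.9 CPM, which overlapped WT. The log2 fold change there was -0.55 against WT (SE 0.198, adjusted p = 0.0692) and -0.48 against the other mutants (SE 0.157, adjusted p = 0.026), where 16.2% of all genes were called. Against the set 3 library of WT alone, at 90.1 CPM, it was -0.94 (adjusted p = 0.0183), and with the set as a covariate -0.68 (adjusted p = 0.0442).

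STE5 (YDR103W, chromosome IV:658350-661103, plus strand) holds the kinases of the cascade together. WT was at 47.6, 49.1, 58.2 and 52.6 CPM. H3R40K, with lysine in place of arginine 40, was at 71.5, 70.3 and 80.3 CPM, the highest genotype mean. The groups did not overlap and STE5 rose by 0.51 on the log2 scale (SE 0.142, adjusted p = 0.0139), in a comparison that called 8.85% of all genes. The call was lost with the set as a covariate (log2 0.38, adjusted p = 0.199), within set 3 (0.52, adjusted p = 0.127) and without H3R40K S138 (adjusted p = 0.1). STE5 in WT was the lowest mean of all genotypes other than H3K4R, where S55 had 0 counts, and the mean of the mutants was 0.22 above WT on the log2 scale (95% interval 0.02 to 0.42), with an unadjusted p of 0.0303 and an adjusted p of 0.741.

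STE12 (YHR084W, chromosome VIII:274174-276240, plus strand) encodes the factor that turns on mating genes. WT was at 27.9, 33.9, 27.6 and 24.4 CPM. H3K37Q was at 17.6, 11.3 and 16.4 CPM, and H3K121Q at 35.4, 41.6 and 51 CPM. H3K37Q was wholly below and H3K121Q wholly above WT, but neither passed against WT (log2 -0.90 and 0.59, adjusted p = 0.1 and 0.334). Against the other mutants STE12 fell by 0.80 in H3K37Q (adjusted p = 0.049, background 7.57%) and rose by 0.74 in H3K121Q (adjusted p = 0.0254). With the set as a covariate neither was called, at adjusted p = 0.215 and 0.0665. STE12 lay wholly below WT in 6 of the 29 mutants, 4 of them of set 3. Of all gene and mutant combinations 4.58% lay wholly below WT, with 16.8% of genes in H3T3D and 11.6% in H3S31D. In H3K122A it was at 17.6, 17.4 and 19.2 CPM, with a log2 fold change of -0.65 that did not pass (SE 0.314, adjusted p = 0.516).

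Among the a cell genes, STE2 (YFL026W, chromosome VI:82580-83875, plus strand), the receptor for alpha-factor, had 0 to 12.3 CPM in the libraries and genotype means of 1.86 CPM (H3K121Q) to 7.71 CPM (H3K4R), without H3K4R S55. WT was at 5.44, 1.52, 5.02 and 2.82 CPM, and no genotype was separated from WT by the test. BAR1 (YIL015W, chromosome IX:322342-324105, plus strand), which degrades alpha-factor, was at 5.44, 5.06, 4.01 and 1.88 CPM in WT. It was at 1.65, 0.967 and 0.799 CPM in H3R40K, from 4, 3 and 2 counts against 8, 10, 8 and 4 counts in WT. The groups did not overlap and BAR1 fell by 1.76 on the log2 scale (SE 0.576, adjusted p = 0.0398). Within set 3 the log2 fold change was -0.68 (adjusted p = 0.769), with the set as a covariate -1.30 (adjusted p = 0.28), and the call was lost without any library of H3R40K or without WT S46, S81 or S82. The lowest genotype mean was that of H3K36A, at 0.886 CPM, where the log2 fold change of -1.97 did not pass (SE 0.657, adjusted p = 0.115).

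MF(ALPHA)1 (YPL187W, chromosome XVI:193648-194145, plus strand) is the main gene for the alpha-factor precursor. MF(ALPHA)2 also encodes alpha-factor, and reads that align equally well to both genes would fall on the summary line for alignments that are not unique rather than in either level. MF(ALPHA)1 was at 645.7, 701.2, 545.9 and 494.7 CPM in WT. H3K122A was at 218.4, 304.7 and 390.6 CPM, the lowest mean of all genotypes, and all its libraries were below WT. The log2 fold change was -0.97 (SE 0.26), with an adjusted p of 0.0503 just outside the threshold. DESeq2 gave 0.0172, the fit with the set as a covariate 0.0108 and the fit of set 1 alone 0.00892. A fit of H3K122A and WT libraries alone did not pass (log2 -0.94, adjusted p = 0.144). Against the mean of the other mutants MF(ALPHA)1 fell by 0.91 in H3K122A (SE 0.215, adjusted p = 0.0157). H3T3A, H3T3D, H3S31D and H3K36A were also wholly below WT, at log2 fold changes of -0.61, -0.54, -0.58 and -0.52 that did not pass. Of all genes, 11.1% lay wholly below WT in H3T3A, 16.8% in H3T3D and 11.6% in H3S31D. The set 3 library of WT was the lowest of WT, and within set 3 the values of H3T3D and H3S31D were -0.27 and -0.30.

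SAG1 (YJR004C, chromosome X:442909-444861, minus strand) encodes the agglutinin of alpha cells, which binds the agglutinin of a cells when partners touch. WT was at 1005, 559.5, 659.8 and 479.2 CPM. H3K122Q was at 923.1, 1917 and 673.8 CPM, the highest mean, and H3T3D at 401.1 and 349.9 CPM, the lowest. Neither passed against WT (log2 0.79 and -0.85, SE 0.396 and 0.471, adjusted p = 0.637 and 0.253), and the 95% intervals of 0.00 to 1.59 and -1.79 to 0.10 leave room for changes of more than 2-fold. In H3R40K, at 1044, 759.8 and 704.2 CPM, SAG1 did not pass either (log2 0.31, adjusted p = 0.688). Nor did it pass in a fit of H3R40K and WT libraries alone (log2 0.32, adjusted p = 0.53). With the set as a covariate its log2 fold change was 1.23 (adjusted p = 0.0243). Within set 3, which has 1 WT library, it was 0.83.

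AFB1 (YLR040C, chromosome XII:228908-229582, minus strand) was at 265.8, 135.1, 122.9 and 188.7 CPM in WT. H3T3D was at 92.4 and 83.4 CPM, the lowest mean, and H3K121A at 264.9, 467.4 and 133.6 CPM, the highest. The H3T3D libraries were below WT and those of H3K121A overlapped it. AFB1 in H3T3D changed by a log2 fold change of -1.01 against WT (SE 0.378, adjusted p = 0.082) and by -1.01 against the other mutants (SE 0.331, adjusted p = 0.0341), the latter being a call that was lost with the set as a covariate (log2 -0.70, adjusted p = 0.355).

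The clearest difference among substitutions of the same residue was between H3K122A and H3K122Q, which have alanine or glutamine in place of the same lysine in the core of H3. All 10 members were lower in H3K122A, with a median log2 fold change of -0.55 against -0.01 for all genes. The 3 GPA1 libraries of H3K122Q were at 98, 82.9 and 74.9 CPM, all above those of H3K122A, and GPA1 differed by -1.12 (SE 0.245, adjusted p = 0.0153), where 0.189% of all genes were called. MF(ALPHA)1 was at 583.9, 1010.5 and 608.6 CPM in H3K122Q and differed by -1.27 (SE 0.276, adjusted p = 0.0153). SAG1 and STE12 were also lower in every H3K122A library (log2 -1.46 and -0.64, adjusted p = 0.302 and 1), so that 4 members did not overlap, where 4.05% of all genes lay wholly below. STE4 and STE5 differed by -0.10 each, with 95% intervals of -0.59 to 0.38 and -0.42 to 0.21.

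Within set 1 alone the differences between H3K122A and H3K122Q were -1.35 for GPA1, -1.60 for MF(ALPHA)1 and -1.88 for SAG1, the last with an adjusted p of 0.000768. With the set as a covariate SAG1 was called too (log2 -1.29, adjusted p = 0.0321). Leaving out H3K122A S59 or S60 or H3K122Q S62 ended both calls, with GPA1 at -1.09, -1.01 and -1.14 and MF(ALPHA)1 at -1.08, -1.27 and -0.96, and leaving out H3K122Q S61 ended that of GPA1 (-1.01). Other genes of the pathway were lower in H3K122A than in H3K122Q as well, and some of them are named here after their values were seen. They were the negative regulator SST2 (log2 -1.49, adjusted p = 0.00274), FAR1, which arrests the cell cycle (-1.45, adjusted p = 0.00549), the fusion gene FUS1 (-1.51, adjusted p = 0.000586), the transcription factor KAR4 (-1.40, adjusted p = 0.00549) and the cell wall gene FIG2 (-1.67, adjusted p = 0.0194). Whether these calls hold within set 1, with the set as a covariate or with a library left out was not tested. Against WT, SST2 fell in H3K122A (log2 -1.04, adjusted p = 0.0339), whereas the KAR4 libraries of H3K122A, at 32, 35.3 and 48.2 CPM, overlapped the 41.1 to 46.9 CPM of WT and those of H3K122Q, at 89.2 to 110 CPM, lay above it. FIG2 was above WT (135.6 to 183 CPM) in both mutants, at 206 to 248 CPM in H3K122A and 296 to 1204 CPM in H3K122Q. MFA1, a gene for a-factor, was higher in H3K122A than in WT at 11.6 against 2.62 CPM (log2 2.12, adjusted p = 0.0364), opposite in direction to 8 of the 10 members. It was at 10.9 CPM in H3K122Q (log2 2.03 against WT, adjusted p = 0.0787), and the mutants differed by 0.09 (adjusted p = 1), with libraries that overlapped. These MFA1 values rest on few counts, 10 to 22 per library in H3K122A and 0 to 8 in WT, with a median of 6 over all libraries. MFA2, which also encodes a-factor, was at 7.24 CPM in H3K122A and 6.58 CPM in WT, with libraries that overlapped.

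**Figure D3:**
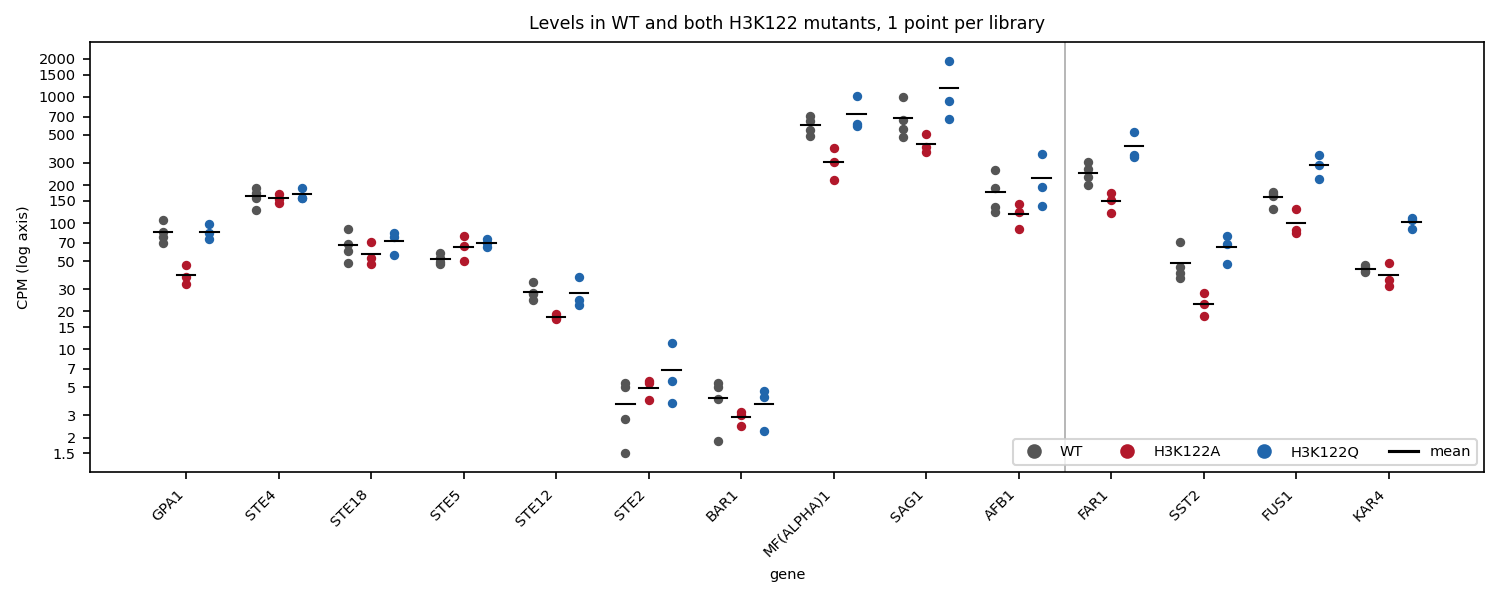
CPM (log axis) of the 10 members, left of the line, and of FAR1, SST2, FUS1 and KAR4 in each library of WT, H3K122A and H3K122Q; bars are means. GPA1, STE12 and MF(ALPHA)1 in H3K122A lie below WT and below H3K122Q, STE4 and STE5 overlap between the mutants, and FUS1 and KAR4 in H3K122Q lie above WT.

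The members as a whole were lowest against WT in H3S31D, H3K122A and H3T3D, with median log2 fold changes of -0.56, -0.53 and -0.53, where the medians of all genes were -0.02, -0.03 and -0.04. With the set as a covariate the median of H3K122A was -0.53, still the lowest of the 29, but those of H3S31D and H3T3D, which lie wholly in set 3, were -0.15 and -0.12, and within set 3 they were -0.31 and -0.33. In H3T3D 6 of the 10 members, GPA1, STE4, STE12, MF(ALPHA)1, SAG1 and AFB1, lay wholly below WT, and 16.8% of all genes did. In H3S31D 4 members lay wholly below and 1, STE5, wholly above, against 11.6% and 12.4% of all genes. In H3K122A 3 members lay wholly below, against 4.21% of all genes. In H3T3A, also of set 3, the median was -0.42 (-0.09 with the covariate), 2 members lay wholly below and 1 wholly above, against 11.1% and 12.6% of all genes. H3T3A and H3T3D, which put alanine or aspartate at threonine 3, did not differ in any member by the test; 4 members lay wholly above in H3T3A, as did 20.2% of all genes, and the GPA1 difference was 0.53 (95% interval -0.07 to 1.12). The highest medians, 0.22 each, were those of H3S86A and H3K121Q; with the covariate H3K18A had the highest, 0.34.

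Among genes outside the 10, FUS3, the kinase that phosphorylates Ste12, fell in H3T3D (log2 -1.52, adjusted p = 0.0172). The fusion gene FUS1 fell in H3T3D (-1.32, adjusted p = 0.0018), H3T3A (-1.11, adjusted p = 0.0303), H3K37Q (-0.89, adjusted p = 0.0144) and H3K121R (-0.86, adjusted p = 0.0196). In H3T3D 7.82% of all genes were called against WT. H3T3D, H3T3A and H3K37Q lie wholly in set 3, and the part of the set in these FUS3 and FUS1 falls was not tested. Of 16 further signalling genes, 15 were tested against WT in 29 mutants: 1 of these 435 tests passed higher (MSG5, a phosphatase of the kinases, in H3S86D at log2 0.96, adjusted p = 0.00339) and 2 passed lower. Of 10 genes of pheromone processing and export, 3 tests of 290 passed higher and 4 lower. They were led by RAM2, a subunit of the enzyme that farnesylates a-factor and other proteins. RAM2 rose by 0.98 in H3K121R and 1.0 in H3K37Q and fell by 0.96 in H3T3D. The part of the set in its H3K37Q and H3T3D values was not tested either. Of 14 pheromone-induced genes, 7 tests of 406 passed higher and 7 lower. Of the 11 haploid-specific genes, which include GPA1, STE4, STE18, STE5 and STE12, 2 tests of 319 passed higher and 5 lower. The calls of GPA1, STE5 and FUS3 given above are among them. Of the a-specific genes, which include STE2 and BAR1, 1 passed higher (MFA1 in H3K122A) and 1 lower of 145 tests. The lower was the BAR1 call in H3R40K given above. Of the alpha-specific genes, which include SAG1, MF(ALPHA)1 and AFB1, 1 passed higher, STE3 in H3K121R (log2 0.91, adjusted p = 0.042). Against the background of 1.4% called, the shares were 0.69% for the signalling and the alpha-specific genes and 3.45% for the pheromone-induced genes.

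Several members moved with the set of sample numbers within genotypes. In the 21 genotypes with libraries in sets 1 and 2, the set 2 level of SAG1 was below the set 1 mean in 19, with a median difference of -0.83 on the log2 scale, and 0.464% of all genes had a lower median. The SAG1 median was 914 CPM over the libraries of set 1, without H3K4R S55, 511 CPM in set 2 and 503 CPM in set 3. The median differences were -0.37 for STE12, -0.34 for GPA1 (below 0 in 18 of 21), -0.31 for STE18 and -0.27 for MF(ALPHA)1, but -0.05 for AFB1 and 0.00 for STE5; the median of all genes was -0.01. Other mating genes differed in the same direction, AGA1, the anchor subunit of the a cell agglutinin, by -1.24 and MF(ALPHA)2 by -0.60. For members, comparisons across sets were also fitted within set 1, within set 3 or with a set covariate, as described above. The covariate fit called 7 combinations against WT, of which 2 were among the 5 without it (GPA1 in H3K122A and in H3T3D). The share of all genes called in that fit was not computed.

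**Figure D4:**
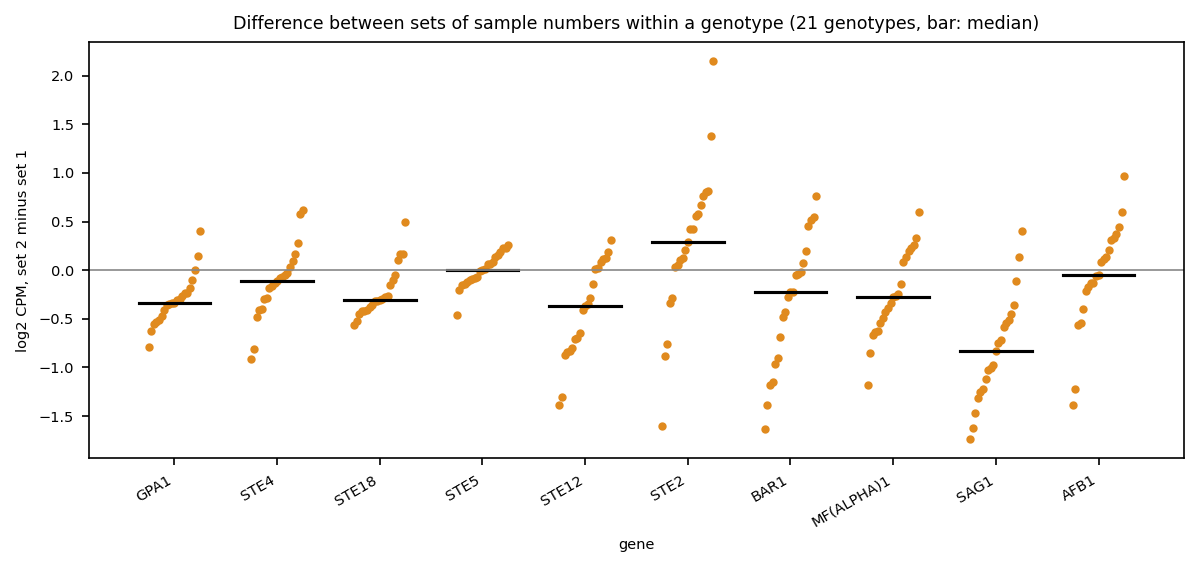
Difference in log2 CPM between the set 2 and the set 1 libraries of the same genotype, for each member; points are the 21 genotypes and bars are medians. SAG1 lies below 0 in 19 genotypes with a median of -0.83, and STE5 is centred on 0.00.

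Levels of some members varied together across genotypes. Over the 30 genotype means of log2 CPM from 89 libraries, without H3K4R S55, the Pearson r was 0.85 for MF(ALPHA)1 and AFB1 and 0.74 for SAG1 and MF(ALPHA)1, while STE5 with GPA1 gave -0.09. Of all genes tested, the one most like SAG1 was AGA1 (r = 0.89), followed by SST2 (0.84) and FUS1 (0.81). The one most like MF(ALPHA)1 was AFB1, followed by SCW10, a cell wall gene (0.83), and PUN1 (0.81). For AFB1 the first 3 were ribosomal protein genes, RPL26B (0.89), RPL37A and RPL24A (0.88 each). The genotype means share their libraries, depths and sets, and the r of deviations within genotypes was 0.90 for SAG1 and AGA1 and 0.77 for MF(ALPHA)1 and AFB1, so libraries of the same genotype varied together too. For GPA1 the most similar gene was DIG1, an inhibitor of Ste12 (0.76), for STE12 it was RTG2 (0.80), for STE4 HXT3 (0.87), for STE18 CPR5 (0.73) and for STE5 KIN28 (0.56). For STE2 and BAR1 the highest values, 0.64 with NCP1 and 0.65 with OYE3, rest on few counts.

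**Figure D5:**
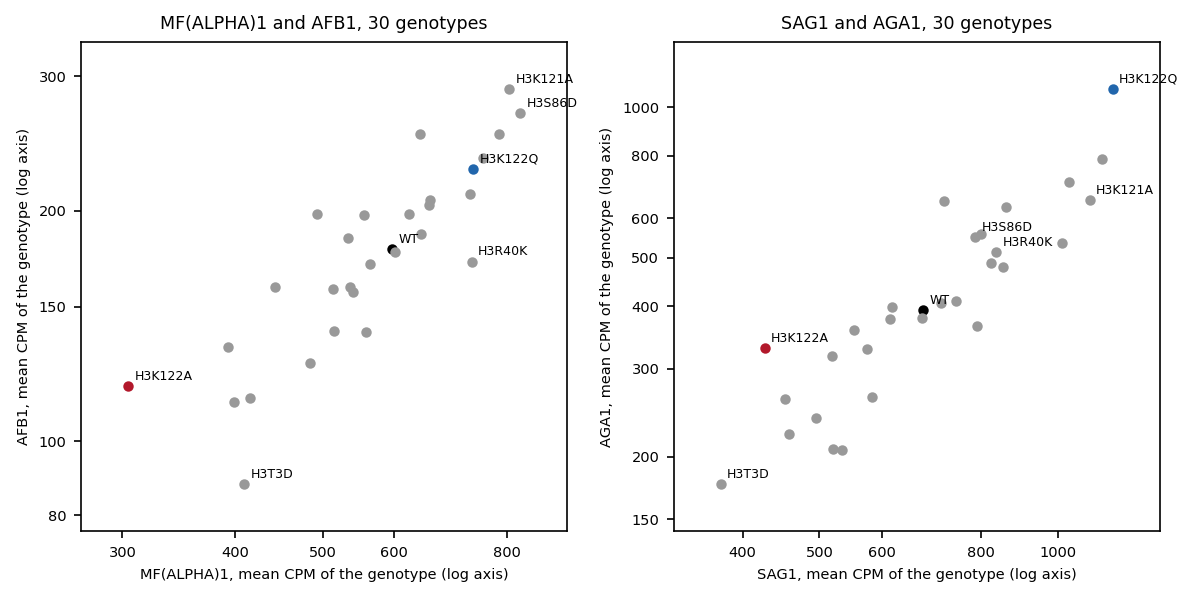
Mean CPM (log axes) of MF(ALPHA)1 against AFB1 (left) and of SAG1 against AGA1 (right), 1 point per genotype, 30 genotypes, without the H3K4R library S55. Both pairs rise together (r = 0.85 and 0.89), H3K122Q has the highest means of SAG1 and AGA1, and H3T3D the lowest means of AFB1, SAG1 and AGA1.

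The authors' deposited table of log2 fold changes over WT has the same sign as the fit in 256 of the 290 member and mutant combinations, and its value is the smaller in size in 192.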

How the data were processed

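RNA was sequenced with QuantSeq, a kit that reads transcript 3′ ends. Per the file headers, the deposited values are raw counts for each gene and log2 fold changes over WT; how replicates were averaged in the latter is not stated. TopHat, HTSeq, featureCounts 1.5.3 and sacCer3 are named, with no roles, in the submitters' processing notes; the strand setting is not given in the sources used here. Without it, reads of a gene and an antisense partner cannot be told apart; no member overlaps another RefSeq gene, and the next gene lies 69 bases beyond STE5 and 94 beyond STE18. Positions are from RefSeq R64, the same assembly. Summary lines (5) and emptied lines (4) were left out; counts outside genes were 28.9% to 50.4% of those plus gene counts. Of 7122 genes, 5822 passed edgeR's filterByExpr.

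Counts were fitted with edgeR 4.0.16 (R 4.3.3; TMM scaling, quasi-likelihood test, 1 coefficient per genotype, 60 residual degrees of freedom), with Benjamini-Hochberg adjustment over all tested genes in each comparison and calls at 0.05; the spread between libraries was 23.3%. Log2 levels used a prior count of 2. Among 92 library pairs of the same genotype, none agreed within counting noise. In simulated data with 200 changed genes of 5681, H3K122A against WT found 50% of 2-fold and 95.9% of 4-fold changes, and 7 of 149 calls were false. The simulation had no differences between sets and took each gene's spread from the trend over all genes. Its shares need not hold for members that vary more, such as SAG1. Alternatives were DESeq2 1.42.0, RLE scaling, no filter, the set as a covariate, other references, and each library left out. The within-set fits and the removal of H3K4R S55 from likeness and set differences were added after seeing the data. The members and lists were chosen with earlier results of these data known. All members are named. Other listed genes could be named where called against WT, at most 6 per list, and not all of these are; FAR1 was named after its values were seen. Likeness names up to 3 genes per member by r. AFB1, first written among the a cell markers, was moved to the alpha cell list after the files were seen. ATAC-seq samples were not analysed here.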

Additional observations from a re-analysis of the deposited data

How the results depend on the processing

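No paired analysis was possible because the columns carry no replicate number. Against WT, 5 member and mutant combinations passed; RLE scaling gave 8 and DESeq2 9, each with all 5 of these, and no filter gave 4. A fit of each mutant with WT alone called 0 of 237 by edgeR's test, 29 of them at an unadjusted p under 0.05. Set 1 alone gave 2 (in 21 mutants) and set 3 alone 2 (in 8 mutants and H4Y88A), and the other 28 mutants as reference gave 14. Leaving out each library gave 3 to 7, with 3 without H3R40K S138 or WT S81. Each time, only comparisons with that library's genotype and the mean of the mutants were fitted again, and the others kept their values. The pairs gave 2 calls, 4 within set 1 and 0 of 20 within set 3 (2 at an unadjusted p under 0.05); leaving out each library gave 0 to 2. Against the other mutants, 14 became 9 with the set as a covariate, of which 3 were shared; each library was not left out there. The mean of the mutants against WT gave 0 calls throughout. The cause of these changes was not tested. The share of all genes called was not computed for the alternative fits, so their counts of member calls have no background beside them. Low counts limit STE2 and BAR1 and, outside the members, MFA1.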
